A study of Mus musculus with 6 samples.

Results

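The genes followed here encode the enzymes and transporters that carry glucose through glycolysis and the citric acid cycle, read in the hippocampus of mice that carry a mutant Braf allele. There were 35 such genes of the 20620 genes listed in the count table, chosen by symbol from a fixed list, and each symbol matched 1 row. They were kept in 2 lists. The first holds 18 genes of glucose uptake, glycolysis and lactate formation. The second holds 17 genes of pyruvate import, the pyruvate dehydrogenase complex and the citric acid cycle.

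All 6 mice were male, on a C57BL/6J background, and had the Q241R substitution in 1 copy of Braf, a RAS-ERK pathway kinase gene. The submitters describe the mice as modelling cardio-facio-cutaneous syndrome. The 3 controls (genotype Braf Q241R Neo/+, aged 31 to 32 weeks) kept the Neo cassette in the mutant allele. The 3 n-Braf mice (genotype Braf Q241R/+ ;CaMKII-Cre, aged 32 to 34 weeks) also had a Cre transgene driven by CaMKII sequences, and the design places the mutant protein in mature excitatory neurons. Cre transgene and Neo cassette differ together between the groups, and their effects cannot be told apart. Each library came from the whole hippocampus of 1 mouse, so all other cell types are measured with the neurons.

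Glycolysis splits glucose into pyruvate in the cytosol, with a small yield of ATP. Pyruvate is then either reduced to lactate or imported into mitochondria, where the pyruvate dehydrogenase complex makes acetyl-CoA for the citric acid cycle, whose reduced carriers feed the respiratory chain. In brain, neurons are known to rely strongly on oxidative metabolism and astrocytes to release lactate, and several steps have isozymes with different distributions between these cells.

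Libraries held 25227112 to 27608256 assigned counts in the controls and 30152839 to 31832245 in n-Braf. Depth thus differed between the groups without overlap, and its part in the values was not tested. Levels are CPM, counts divided by the library total after trimmed-mean (TMM) scaling and set to a common total. Braf, the altered gene, was at 116, 123 and 116 CPM in controls 1 to 3 and at 185, 184 and 205 CPM in n-Braf 1 to 3, in the direction of the labels (adjusted p = 0.0533, edgeR). Camk2a, the gene whose promoter name the Cre carries, differed by 0.16 on the log2 scale (SE 0.11, adjusted p = 0.849). Of 62 markers of 10 cell or tissue types, 59 were tested and 0 of these were at 0 in any library, and the 6 excitatory neuron markers summed to 3334 to 3596 CPM in the controls and 3353 to 4381 CPM in n-Braf. Controls 1 and 2 stood apart in choroid plexus markers, of which 6 of 8 were tested: their sum was 2269 and 1260 CPM there, 27.6 CPM in control 3 and 17.1 to 28.0 CPM in n-Braf. Control 1 also had 3.26% of its counts in the ribosomal RNA repeat Rn18s-rs5, against 0.534% to 0.782% in the other libraries.

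All 35 members were tested, with 669 to 22770 counts in a library. None passed the threshold, an adjusted p of 0.05 over all 20604 genes tested: edgeR's quasi-likelihood test called 0 of 18 in glycolysis and 0 of 17 in the second list, where it called 0% of all genes. At an unadjusted p of 0.05 it picked 1 member, the citrate synthase gene Cs, against 6.82% of all genes and 9.31% of the genes in the members' range of CPM. DESeq2 called 0.429% of the genes it adjusted and 0 members, edgeR's exact test 0.32% of all genes and 0 members, and limma-voom 0% of all genes. The authors' deposited table gave an adjusted p under 0.05 to 29 genes (0.141% of those listed) and to 0 members, and its lowest unadjusted value among them was 0.0875, for Cs.

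The measurements were tight enough to bound these differences. The 95% interval of the n-Braf to control ratio, not adjusted for the number of genes, lay within a 1.5-fold change either way in all 35 members. Its widest reach upward was 1.44-fold, in the glucose transporter gene Slc2a1, and its deepest reach downward was 0.790-fold, in the pyruvate carrier gene Mpc1. Outside Slc2a1, Pfkfb3, Gapdh and Mpc1, the intervals of the other 31 members stayed between 0.857 (Tpi1) and 1.249 (Idh3b). The coefficient of variation between replicates had a median over members of 4.31% in the controls and 5.39% in n-Braf.

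**Figure D1:**
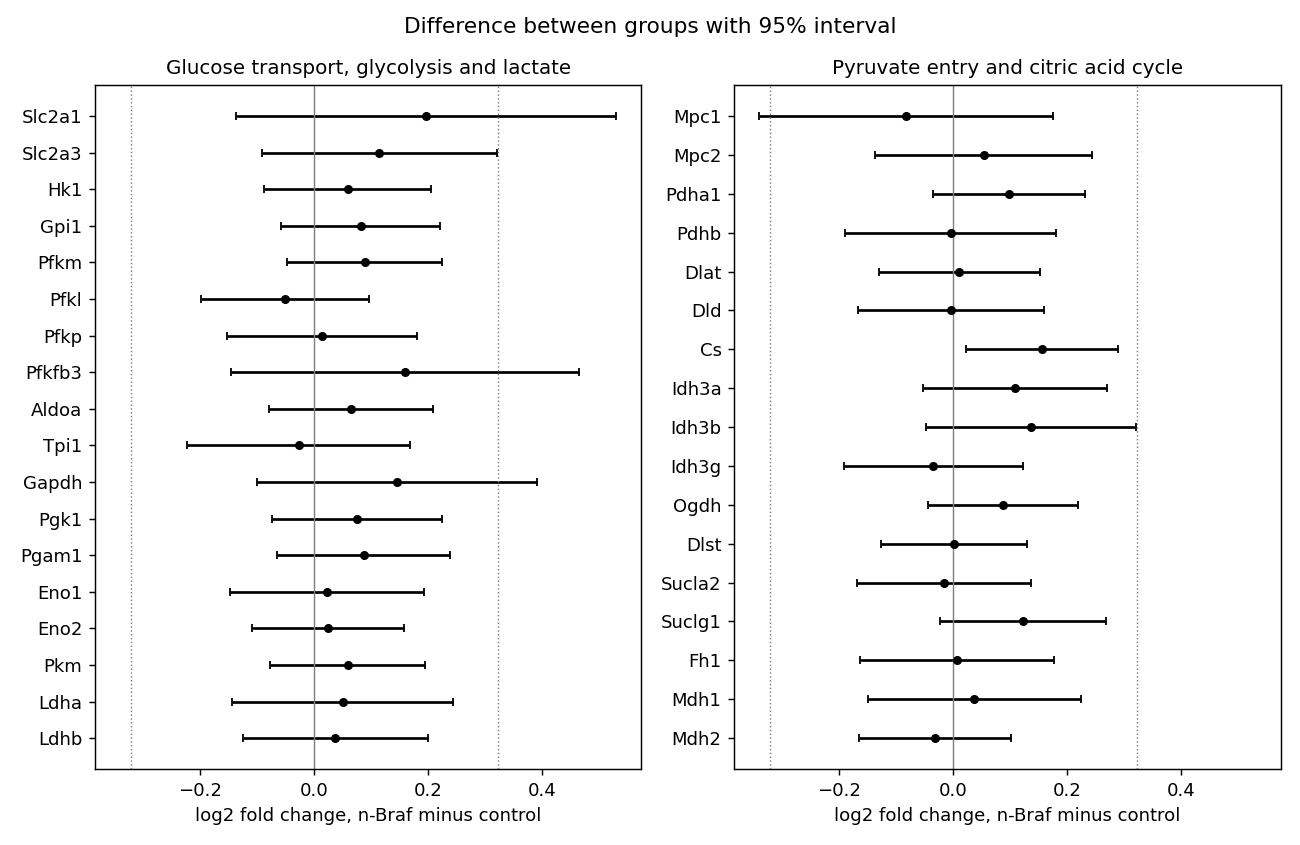
Log2 fold change of each member, n-Braf minus control (x axis), with its 95% interval from edgeR's quasi-likelihood fit over 3 libraries a group; dotted lines mark a ratio of 5 to 4 in either direction. The interval of Cs alone does not reach 0, and those of Slc2a1, Pfkfb3, Gapdh and Mpc1 cross a dotted line.

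The signs leaned upward by a small amount in glycolysis. In that list 16 of 18 members were higher in n-Braf, and the median of their log2 fold changes was 0.06. In the second list 11 of 17 were higher, and the median was 0.01. Over all genes tested 49% were higher (median -0.0042), but among the 5198 genes whose mean CPM lay between the lowest and highest member 65% were (median 0.04). The members are abundant transcripts, so both backgrounds are given, and whether the lists differ from each other or from other genes was not tested. In 5 members, Gpi1, Pkm, Pdha1, Cs and Ogdh, every n-Braf library lay above every control, which is 14.3% of the members against 6.09% of all genes and 12% of the genes in the same CPM range. No member had all n-Braf libraries below the controls, where 5.44% of all genes and 138 of the 5198 genes in the same CPM range lay so.

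Glucose enters brain cells through the facilitative transporters GLUT1, encoded by Slc2a1 and typical of endothelium and astrocytes, and GLUT3, encoded by Slc2a3 and typical of neurons. Slc2a1 was at 46.6, 37.7 and 46.6 CPM in controls 1 to 3 and at 39.1, 59.8 and 51.0 CPM in n-Braf 1 to 3, which is a difference of 0.20 on the log2 scale (SE 0.15, adjusted p = 0.869). The groups overlapped, since n-Braf 1 lay below 2 of the controls, and n-Braf 2 was the highest library. Slc2a3 was at 66.2, 82.8 and 74.8 CPM in the controls and at 79.9, 86.9 and 75.3 CPM in n-Braf (log2 fold change 0.11, SE 0.09, adjusted p = 0.884). It overlapped too, with control 1 lowest. Slc2a1 and Pfkfb3 had the largest differences of the glycolysis list and also its largest standard errors. Among endothelial markers 5 of 6 were higher in n-Braf, and among astrocyte markers 4 of 6. The endothelial sums were 117, 102 and 112 CPM in controls 1 to 3 and 126, 115 and 114 CPM in n-Braf 1 to 3. The astrocyte sums were 862, 901 and 928 CPM against 897, 891 and 956 CPM. The part of these markers in the Slc2a1 value was not tested.

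Hexokinase traps glucose in the cell as glucose 6-phosphate. Hk1, the main brain hexokinase gene, was at 235 ± 3.20 CPM in control mice and 245 ± 15.2 CPM in n-Braf (SD, 3 libraries each), with an adjusted p of 0.930. Gpi1, the isomerase that makes fructose 6-phosphate, was at 295, 311 and 310 CPM in controls 1 to 3 and at 337, 320 and 313 CPM in n-Braf 1 to 3. The groups did not overlap, but the gap between control 2 and n-Braf 3 was small, and the 5.80% difference did not pass (log2 fold change 0.08, SE 0.06, adjusted p = 0.871).

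Phosphofructokinase commits the sugar to glycolysis and is built from muscle (Pfkm), liver (Pfkl) and platelet (Pfkp) type subunits. Pfkm had the smallest unadjusted p of the glycolysis list, at 151, 146 and 157 CPM in the controls and 165, 163 and 155 CPM in n-Braf (log2 fold change 0.09, SE 0.06, adjusted p = 0.854). Its groups overlapped by the order of control 3 and n-Braf 3. Pfkl was at 109, 108 and 99.0 CPM in the controls and 105, 96.9 and 104 CPM in n-Braf, and Pfkp at 172, 173 and 183 CPM against 188, 183 and 161 CPM. Pfkl and Tpi1 were the 2 members of the list with negative log2 fold changes (-0.05 and -0.03). Pfkfb3, whose enzyme makes fructose 2,6-bisphosphate, the activator of phosphofructokinase, was the least abundant member, at 28.3 ± 3.05 CPM in the controls and 31.6 ± 5.67 CPM in n-Braf (adjusted p = 0.893).

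The steps from aldolase onward hold the most abundant members. Aldoa, an aldolase gene, was at 643, 613 and 649 CPM in the controls and at 691, 644 and 656 CPM in n-Braf (log2 fold change 0.06, SE 0.06, adjusted p = 0.916). Gapdh, whose enzyme makes the first NADH of the pathway, was at 501, 632 and 659 CPM in the controls and 713, 607 and 661 CPM in n-Braf (log2 fold change 0.15, SE 0.11, adjusted p = 0.867). Control 1 was the lowest Gapdh library by a wide margin, and n-Braf 2 lay below controls 2 and 3. Without control 1 the log2 fold change of Gapdh was 0.03. It lay between 0.085 and 0.22 when any other library was left out. Gapdh is often used as a reference gene, and here its standard error was the third largest of the list. The isomerase gene Tpi1 went the other way in control 1, its highest library: 170 CPM there, 139 and 144 CPM in controls 2 and 3, and 143 to 158 CPM in n-Braf.

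Pgk1, whose enzyme makes the first ATP of glycolysis, was at 161 ± 5.52 CPM in control mice and 170 ± 9.82 CPM in n-Braf (SD, 3 libraries each). Pgam1, a phosphoglycerate mutase gene, was at 186, 189 and 187 CPM in the controls and at 212, 201 and 184 CPM in n-Braf (log2 fold change 0.09, SE 0.07, adjusted p = 0.876). The controls were nearly level and lay between n-Braf 3 and n-Braf 2. Pkm, the pyruvate kinase gene, was at 582, 565 and 579 CPM in the controls and at 619, 588 and 590 CPM in n-Braf, a 4.16% difference with no overlap (log2 fold change 0.06, SE 0.06, adjusted p = 0.921). The values are per gene, so the M1 and M2 splice forms of Pkm were not separated.

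Enolase and lactate dehydrogenase each have a pair of isozymes. Eno1, the ubiquitous enolase, was at 410, 400 and 405 CPM in the controls and 451, 405 and 379 CPM in n-Braf, and Eno2, the neuron-specific enolase, at 311, 308 and 325 CPM against 323, 312 and 324 CPM. The n-Braf libraries of Eno1 spread on both sides of the controls. Ldha, the subunit associated with lactate production, was at 86.1, 83.1 and 93.2 CPM in the controls and 102, 84.0 and 85.8 CPM in n-Braf, and Ldhb, associated with lactate use, at 161, 170 and 176 CPM against 180, 159 and 181 CPM. All 4 had absolute log2 fold changes of 0.05 or less and adjusted p-values from 0.965 to 0.987. Both lactate dehydrogenase genes overlapped between the groups.

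**Figure D2:**
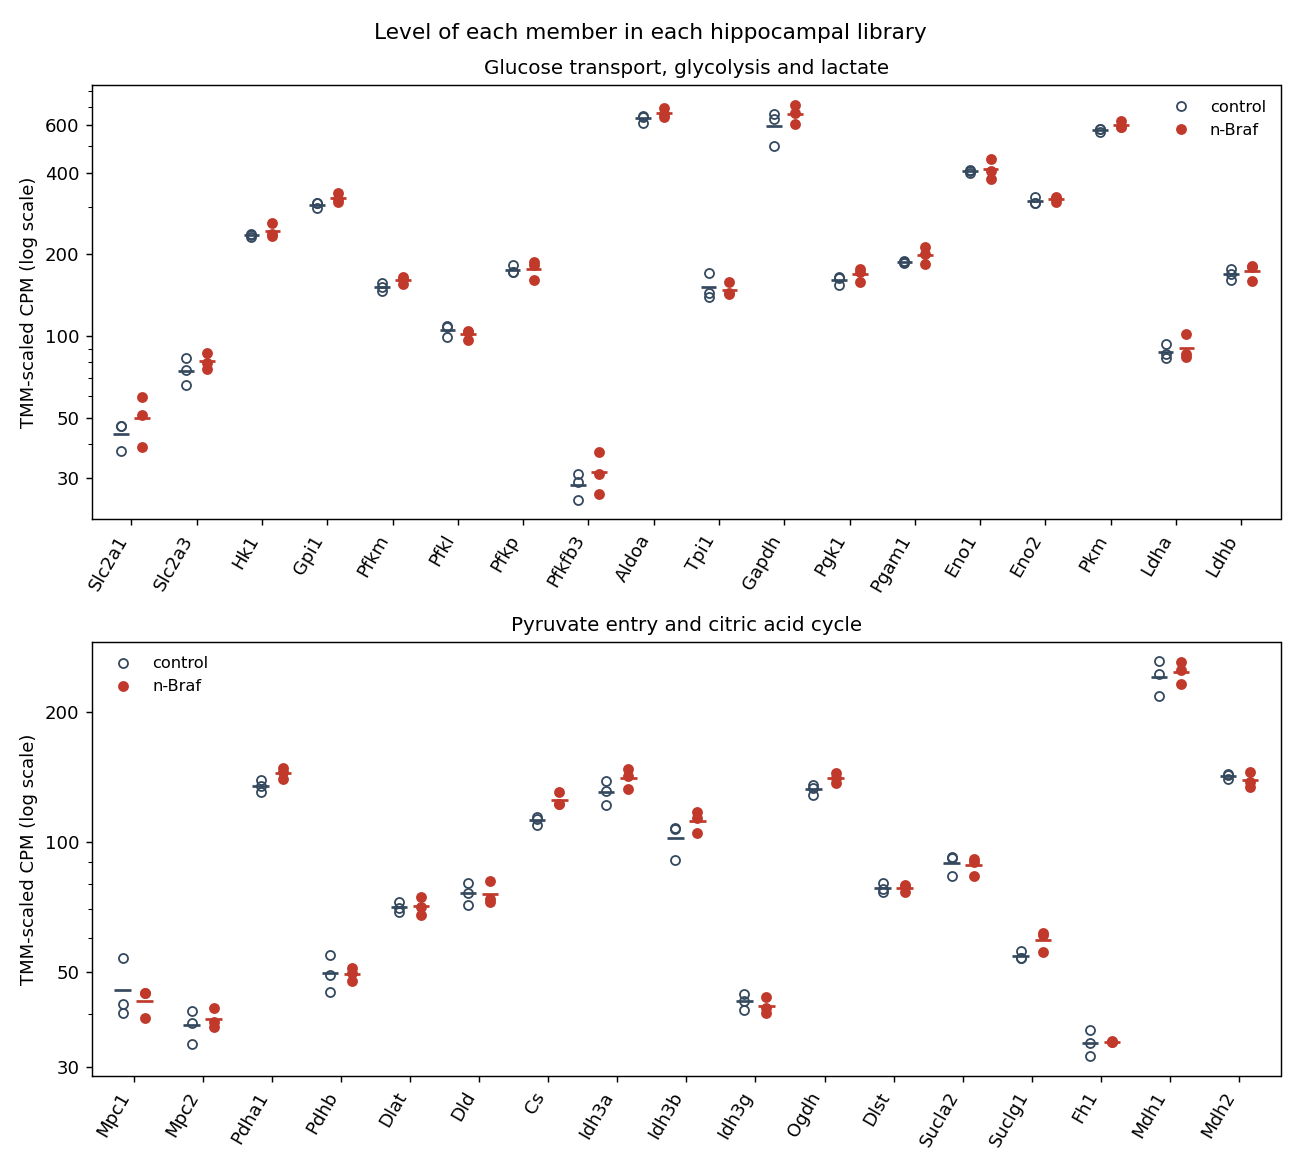
TMM-scaled CPM of each member (y axis, log scale) in every library, with controls as open circles, n-Braf as filled circles and the mean of 3 libraries as a bar. Within a gene the groups lie close together, and levels of different genes are not comparable on this scale because it is not divided by length.

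Pyruvate enters mitochondria through a carrier made of 2 subunits. Mpc1 was at 40.1, 42.0 and 53.7 CPM in the controls and at 44.6, 39.1 and 44.6 CPM in n-Braf, a difference of -0.08 on the log2 scale (SE 0.11, adjusted p = 0.953). Control 3 was the highest library, and without it the value was 0.06. Mpc2 was at 34.0, 40.5 and 38.0 CPM against 38.2, 37.3 and 41.3 CPM (log2 fold change 0.05, SE 0.08). Neither subunit separated the groups.

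The pyruvate dehydrogenase complex decarboxylates pyruvate with its E1 (Pdha1, Pdhb), E2 (Dlat) and E3 (Dld) components. Pdha1 was at 131, 135 and 139 CPM in the controls and at 145, 149 and 140 CPM in n-Braf, with no overlap and a 7.03% difference (log2 fold change 0.10, SE 0.06, adjusted p = 0.823). Control 3 and n-Braf 3 lay close together. Its E1 partner Pdhb (log2 fold change -0.0046, SE 0.08), Dlat (0.01, SE 0.06) and Dld (-0.0041, SE 0.07), an E3 that the oxoglutarate dehydrogenase complex also uses, had values near 0.

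Cs, citrate synthase, which joins acetyl-CoA to oxaloacetate at the entry of the cycle, had the smallest p of all 35 members. It was at 110, 113 and 114 CPM in controls 1 to 3 and at 131, 122 and 122 CPM in n-Braf 1 to 3, and every n-Braf library was above every control. The gene lies on chromosome 10 at 128337734 to 128362479 (GRCm38). The log2 fold change was 0.16 (SE 0.06), a ratio of 1.11 with a 95% interval of 1.02 to 1.22. Its unadjusted p in edgeR's quasi-likelihood test was 0.0262 and its adjusted p 0.682, so it did not pass. It was higher in n-Braf in all 20 other settings run. Leaving out 1 library could hardly change this sign, since the groups did not overlap. The other settings refit the same libraries, so this count is no separate support. The unadjusted p of Cs in edgeR's quasi-likelihood test was under 0.05 in only some settings. It was 0.0828, 0.0526 and 0.0535 without control 1, 2 and 3, so leaving out any 1 control took it above 0.05. It was 0.0979 with library size alone as the scaling and 0.0511 with the replicate number as a block. With age as a covariate 0 members were under 0.05, and without n-Braf 1 the 1 member under it was Slc2a1. In edgeR's exact test the unadjusted p of Cs was 0.0675.

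Isocitrate dehydrogenase 3, the NAD-dependent enzyme of the cycle, has catalytic (Idh3a) and other (Idh3b, Idh3g) subunits. Idh3a was at 122, 132 and 139 CPM in the controls and 148, 133 and 142 CPM in n-Braf (log2 fold change 0.11, SE 0.07, adjusted p = 0.849). Idh3b was at 90.8, 108 and 107 CPM against 114, 105 and 117 CPM (0.14, SE 0.08, adjusted p = 0.820), and Idh3g at 42.7 ± 1.88 CPM against 41.6 ± 1.78 CPM (SD, 3 libraries each). Control 1 was the lowest library of Idh3a and Idh3b, and both overlapped between the groups. The subunits did not share a sign, since Idh3g had a log2 fold change of -0.04 (SE 0.07).

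Ogdh, the E1 of the oxoglutarate dehydrogenase complex, was at 133, 136 and 129 CPM in the controls and at 141, 145 and 137 CPM in n-Braf, without overlap (log2 fold change 0.09, SE 0.06, adjusted p = 0.849). Its E2 gene Dlst had the smallest absolute difference of all members, at 78.2 ± 1.96 CPM against 78.3 ± 1.496 CPM (SD, 3 libraries each). Suclg1, the shared alpha subunit of succinate-CoA ligase, had the second smallest p of the list: 55.8, 53.8 and 53.9 CPM in the controls and 60.7, 55.7 and 61.5 CPM in n-Braf (0.12, SE 0.06, adjusted p = 0.796). The groups overlapped, with n-Braf 2 just below control 1. Sucla2, the ATP-specific beta subunit, was at 89.2 ± 5.06 CPM against 88.2 ± 4.14 CPM, and Fh1, fumarase, at 34.2 ± 2.39 CPM against 34.4 ± 0.0941 CPM.

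Malate dehydrogenase closes the cycle in mitochondria (Mdh2) and carries reducing equivalents for the malate-aspartate shuttle in the cytosol (Mdh1). Mdh1 was at 218, 245 and 263 CPM in the controls and 262, 232 and 250 CPM in n-Braf (log2 fold change 0.04, SE 0.08). Mdh2 was at 143, 140 and 144 CPM against 145, 134 and 138 CPM (-0.03, SE 0.06), and both had groups that overlapped (adjusted p = 0.976 and 0.970).

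Compared per length, with CPM divided by the merged exon length of the gene, the members differed far more from each other than between groups. In glycolysis Aldoa was highest at 223 CPM per kb over all 6 libraries, ahead of Gapdh at 152 and Pkm at 117 CPM per kb, and Pfkfb3 lowest at 3.96 CPM per kb. In the second list Mdh1 led at 95.5 CPM per kb, then Mdh2 at 39.5 and Pdha1 at 37.4 CPM per kb, and Mpc2 was lowest at 5.21 CPM per kb. The order depends on the length used. With the longest annotated transcript Aldoa (419 CPM per kb) and Mdh1 (115.5 CPM per kb) stayed highest and Pfkfb3 and Mpc2 lowest, but Eno1 moved from sixth to the third place of glycolysis and Gapdh from the second to the fourth. Cs, which takes in the product of the pyruvate dehydrogenase complex, was at 20.5 CPM per kb of merged exon, close to Dld at 20.6.

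Isozyme shares, computed within a library and so free of the scaling between libraries, were tested by an exact two-sided permutation over the 6 libraries, in which 3 against 3 cannot give less than 0.1. Of the per-length lactate dehydrogenase signal Ldhb took 80.3% ± 0.739 in control mice and 80.2% ± 1.42 in n-Braf (SD, 3 libraries each; exact permutation p = 1). Eno2 took 47.0% ± 0.731 and 47.1% ± 2.25 of the enolases (exact permutation p = 0.9). Slc2a3 took 45.3% ± 5.56 and 44.2% ± 4.76 of the transporter pair, and Mpc2 19.2% ± 2.39 and 20.5% ± 0.894 of the carrier pair (exact permutation p = 0.7 and 0.6). The share that separated the groups was that of Pfkm among the phosphofructokinases: 60.9%, 60.1% and 62.3% in controls 1 to 3 and 62.5%, 63.4% and 62.8% in n-Braf 1 to 3. This difference of 1.80 percentage points reached the smallest p possible (exact permutation p = 0.1), which became 0.7 after adjustment over the 7 shares. Pfkl took 21.3% ± 1.41 and 19.9% ± 1.06 and Pfkp 17.6% ± 0.424 and 17.2% ± 0.878 (exact permutation p = 0.3 and 0.7). Dividing by the longest transcript moved the level of the Pfkm share to 52.0% and 54.0%, with the same p. It moved the Eno2 share to 36.0% in the controls and 36.1% in n-Braf, and the Ldhb share to 72.9% and 72.7%. The levels of the shares therefore depend on the length used.

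**Figure D3:**
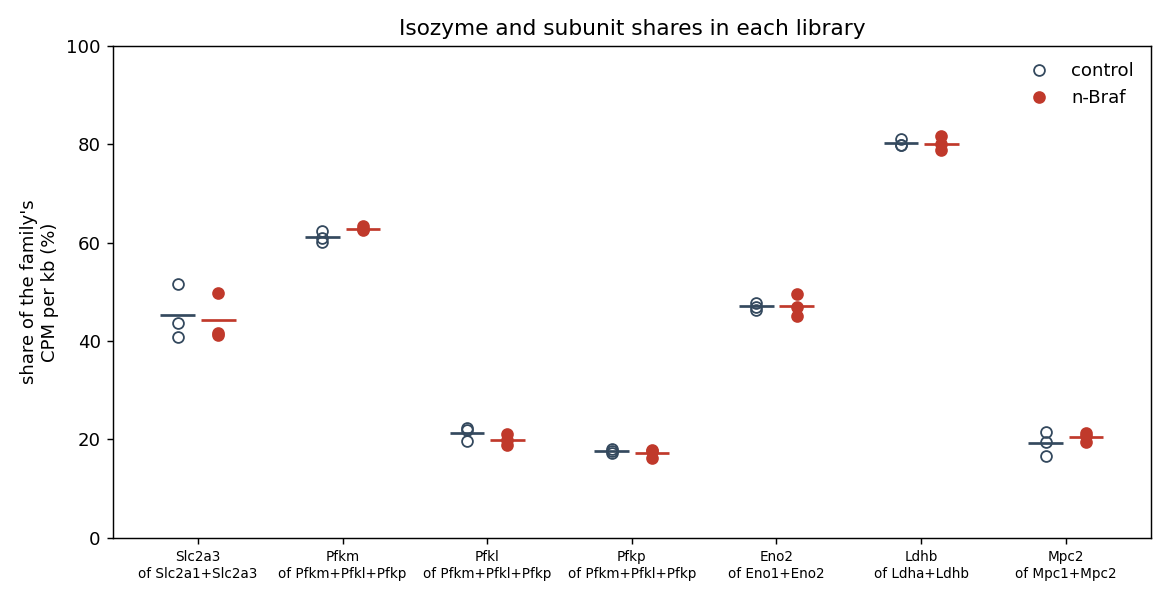
Share of 1 isozyme or subunit in the summed CPM per kb of its family (y axis, percent) in each library, with controls open, n-Braf filled and bars at the mean of 3 libraries. With the merged exon lengths used here Ldhb lies near 80% in both groups, and Pfkm is the share whose groups do not overlap.

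Control 1 was the lowest of the 6 libraries in 10 of the 17 members of the second list. In glycolysis control 2 was the lowest in 7 of 18 members and control 1 in 5, and n-Braf 1 was the highest in 11. The mean deviation of the glycolysis list from its average over libraries, in log2 CPM, was -0.06, -0.04 and 0.0016 in controls 1 to 3 and 0.07, 0.02 and 0.02 in n-Braf 1 to 3. The groups did not overlap in this mean, but control 3 and n-Braf 2 were 0.02 or less from 0. For the second list the deviations were -0.09, 0.0021 and 0.03 in the controls and 0.04, -0.02 and 0.04 in n-Braf, and the groups overlapped. Without control 1 the second list had a median log2 fold change of -0.01 and 6 of 17 members higher, and without n-Braf 3 it had 0.0018 and 9 of 17. Without n-Braf 1 the glycolysis median was 0.03 with 13 of 18 higher.

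Of the 59 tested markers of cell and tissue types 0 passed the threshold, so the following are values only. Mean deviations of the excitatory neuron markers were -0.08, -0.06 and -0.03 in controls 1 to 3 and 0.06, -0.11 and 0.21 in n-Braf 1 to 3, and 5 of 6 were higher in n-Braf. All 6 oligodendrocyte markers were lower, with sums of 1627 to 2104.5 CPM in the controls and 1383 to 1890 CPM in n-Braf. All 6 interneuron markers had higher values. All 5 blood markers had lower group values, but their sums were 128, 33.1 and 41.4 CPM in controls 1 to 3 and 25.0, 96.4 and 56.2 CPM in n-Braf 1 to 3, with control 1 the highest and the other libraries mixed. Astrocyte, microglial and neocortical markers had 4 of 6, 3 of 6 and 6 of 7 higher. All 6 tested choroid plexus markers and all 5 tested ependymal markers were lower, and against control 3 alone, the control low in choroid plexus markers, the medians of the 2 lists were 0.04 and 0.02. In bulk tissue fewer cells of a type and less RNA per cell cannot be told apart, and the part of these markers in the members' values was not tested.

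**Figure D4:**
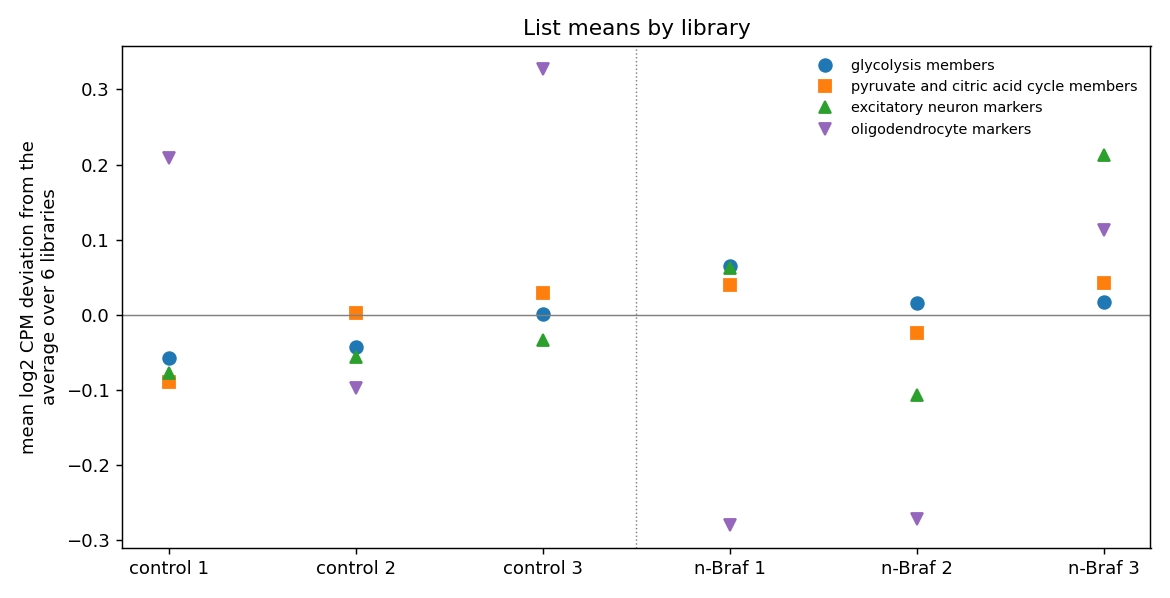
Mean deviation in log2 CPM from the average over 6 libraries (y axis) for the glycolysis list, the pyruvate and citric acid cycle list and the excitatory neuron and oligodendrocyte markers in each library (x axis). Control 1 is the lowest library for both enzyme lists, and the marker lists drawn here spread further than the enzyme lists. Not every marker list did so: astrocyte markers, not drawn, ran from -0.04 to 0.04.

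Promoters were read for what the members share beyond the list. Windows of 250 bases before to 50 after the start (RefSeq, GRCm38.p6) were found for 17 of 18 genes of glycolysis and 16 of 17 of the second list, some with several starts. The letters ACGTG on either strand, the core of the site bound by hypoxia-inducible factors and part of the E-box CACGTG, were in 13 of 28 glycolysis windows (46.4%) and 9 of 22 windows of the second list (40.9%, in 4 genes, several of them overlapping Ogdh starts). Over all 32851 windows the share was 19.6%. Counted by gene, 10 of 17 in glycolysis (58.8%) and 4 of 16 in the second list (25.0%) had a match in some window, against 21.8% of all genes with a window. The 17 glycolysis genes had 28 windows and all 27025 genes had 32851, so a member had more places for a match. No background of genes with like abundance or base content was read. The ETS core CCGGAAG, on either strand, was in 0 of 28 and 4 of 22 windows, and in 8.86% of all windows; by gene it was in 0 of 17 and 4 of 16, and in 9.93% of all genes. A match describes letters and is no measure of binding. Below are the 250 bases before the start, 5′ to 3′ on the strand of the gene, for the members with 1 window outside the annotated gene that hold a match and have the smallest p, up to 2 a list, with the matches in capitals. They lie at chr19:41911621-41911870 (plus strand), chrX:106186850-106187099 (plus strand) and chrX:73786898-73787147 (minus strand).
Pgam1: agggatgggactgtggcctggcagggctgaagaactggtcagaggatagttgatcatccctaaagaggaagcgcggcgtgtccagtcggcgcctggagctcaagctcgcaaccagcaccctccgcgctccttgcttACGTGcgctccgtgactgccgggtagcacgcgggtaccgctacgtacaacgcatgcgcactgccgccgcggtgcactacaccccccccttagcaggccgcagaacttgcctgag
Pgk1: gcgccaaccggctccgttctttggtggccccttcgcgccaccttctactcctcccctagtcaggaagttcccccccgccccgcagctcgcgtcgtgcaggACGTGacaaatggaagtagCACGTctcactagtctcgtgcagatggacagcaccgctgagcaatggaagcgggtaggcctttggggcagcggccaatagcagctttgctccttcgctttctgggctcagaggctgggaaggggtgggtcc
Idh3g: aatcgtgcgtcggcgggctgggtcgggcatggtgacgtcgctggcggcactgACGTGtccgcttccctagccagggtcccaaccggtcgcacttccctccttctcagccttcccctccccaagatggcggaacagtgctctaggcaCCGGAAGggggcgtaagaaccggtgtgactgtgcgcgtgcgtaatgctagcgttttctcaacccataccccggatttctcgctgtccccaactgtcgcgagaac

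Pgam1 and Pgk1 hold the ACGTG letters, Pgk1 on both strands, and Idh3g holds 1 match of each motif. Their log2 fold changes were 0.09 (SE 0.07), 0.08 (SE 0.07) and -0.04 (SE 0.07), and 0 of the 3 passed.

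Other genes of these pathways were followed in 6 lists of 76 genes, of which 72 were tested. In n-Braf 41 of them had a higher value and 31 a lower one, and the median difference was 0.01 on the log2 scale. edgeR's quasi-likelihood test called 0 of them, and 3 of the 72 had an unadjusted p under 0.05, where 6.82% of all genes did. In 7 of the 72 (9.72%) every n-Braf library lay above every control, against 6.09% of all genes. In 1 of them every n-Braf library lay below every control, against 5.44% of all genes. By list, 13 of 16 other glycolytic isozymes and regulators were higher, 3 of 8 transport genes, 5 of 10 genes of pyruvate dehydrogenase control and pyruvate carboxylation, 6 of 13 other citric acid cycle genes, 8 of 9 genes of the malate-aspartate shuttle and glutamate entry, and 6 of 16 genes of the pentose phosphate pathway and glycogen.

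Ldhd, a D-lactate dehydrogenase gene, had the smallest p of these, at 4.74, 5.09 and 3.89 CPM in the controls and 5.79, 6.17 and 7.12 CPM in n-Braf (log2 fold change 0.47, SE 0.16, adjusted p = 0.640). The groups of Ldhd did not overlap. Hkdc1, a hexokinase-like gene, was at 0.46 (SE 0.23). Gpd1, glycerol-3-phosphate dehydrogenase, was at 0.17 (SE 0.12).

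Bsg, basigin, the chaperone of the lactate transporters, was lower in value: 286, 234 and 202 CPM in controls 1 to 3 and 215, 172 and 191 CPM in n-Braf 1 to 3 (log2 fold change -0.32, SE 0.13, adjusted p = 0.713). Its 2 highest libraries were controls 1 and 2, the libraries high in choroid plexus markers, and the part of those markers in it was not tested. The transporter gene Slc2a6 was at 0.28 (SE 0.13). Pdk4, a kinase that inhibits pyruvate dehydrogenase, was at 7.496, 8.26 and 8.64 CPM against 6.13, 6.39 and 7.42 CPM, all n-Braf libraries below the controls (-0.29, SE 0.13, adjusted p = 0.741), where 5.44% of all genes lay so. Pck2, mitochondrial phosphoenolpyruvate carboxykinase, was at 0.16 (SE 0.08), with every n-Braf library above every control. Idh2 (-0.21, SE 0.13) and Idh1 (-0.17, SE 0.11), the NADP-dependent isocitrate dehydrogenases, and the glycogen genes Pygm (-0.23, SE 0.16) and Pgm1 (0.10, SE 0.08) overlapped between the groups. The symbols Pgk2, Pklr, Gapdhs and Csl were not in the count table, so these genes were not tested.

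The deposited counts were not whole numbers in every library for 13 members, among them Gapdh, Pgk1, Pgam1, Eno1, Ldhb and Cs, and were whole in every library for 18 (a tolerance of 0 on the values as deposited). Expected counts share out reads that fit several places, and how far this touches the members was not tested.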

How the data were processed

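Hippocampal RNA of 6 mice was sequenced, with 10.0 ng of total RNA in a strand-specific SMART-Seq kit, per the labels' protocols. Per the submitters' processing notes, reads went through bcl2fastq 2.20, fastp 0.20.1, STAR, RSEM and edgeR 3.36.0 on mm10. Versions of STAR and RSEM, strand setting and annotation release: not given in the sources used here. Deposited by the authors were expected counts per gene, with the authors' own log2 fold change, mean log2 CPM, p-value and adjusted p-value.

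Expected counts were rounded. filterByExpr of edgeR 4.0.16 (minimum count 10) kept 20604 of 20620 genes, TMM scaled the libraries, and the quasi-likelihood test with group as the only term gave p-values, Benjamini-Hochberg adjusted over all genes (R 4.3.3). The standard error is the absolute log2 fold change over the root of the F statistic. Lengths and positions are from GENCODE M21 (GRCm38, the assembly mm10 names). Each mouse has a number in the labels, so replicates are animals. Alternatives were other scalings, filters and tests (DESeq2 1.42.0, limma-voom 3.58.1, edgeR's exact test), a replicate block, age, leaving out libraries or abundant genes, and a looser threshold. Robust or non-legacy quasi-likelihood and control 3 alone were added after seeing the data. Members and lists were chosen with earlier results of these data known. Values in every library are given for the 6 members of each list with the smallest p, the 2 most abundant per length and the isozyme families, and of each other pathway list the 2 genes with the smallest p are named, except 1 gene that is not reported here; Tpi1 and Pkm were added after their values were seen.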

Additional observations from a re-analysis of the deposited data

How the results depend on the processing

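Under 20 other settings 0 members of either list passed the threshold, and also 0 at an adjusted p of 0.1, with adjusted p-values of 0.599 and above. The glycolysis median log2 fold change lay between 0.03 and 0.08 in all of them, and the lowest and highest, 0.032 and 0.083, came from leaving out n-Braf 1 and control 3. That of the second list ran from -0.014 without control 1 to 0.058 without control 3, and was -0.0098 with library size alone as the scaling, where 8 of 17 members were higher. In 17 members the sign changed in at least 1 setting, and the cause was not tested. The 18 that kept their sign were 11 of glycolysis and 6 of the second list, all higher, and Mdh2, lower. For Gpi1, Pkm, Pdha1, Cs and Ogdh, whose groups did not overlap, leaving out 1 library could hardly change the sign. All settings drew on the same libraries, so a kept sign is no separate support. Over all genes 0 were called in the main test, 78 by DESeq2, 66 by edgeR's exact test, 5 by robust quasi-likelihood, 1 without legacy settings, 1 without mitochondrial and the 20 most abundant genes, 3 against control 3 alone (assumed to vary like n-Braf), 2 at an adjusted p of 0.1, and 0 to 82 when 1 library was left out (82 without control 3); the cause was not tested.

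The replicate numbers are not said to pair animals. Same-numbered libraries had deviations correlated at 0.10, -0.05 and -0.01, and control 2 and control 3 correlated best with another number. With the replicate block the medians were 0.062 and 0.0097, with 0 members and 0 genes called. Ages of the groups overlapped only in part, so a fit with age cannot fully separate age from genotype. With age as a covariate the medians were 0.071 (15 members higher, 3 lower) and 0.042 (9 higher, 8 lower), with 0 members called. The log2 fold change of Slc2a1 was then 0.36, against 0.20 in the main fit, and that of Ldhb was -0.03, against 0.04.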
